A study of Capra hircus with 18 samples.

Results

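Whole blood of goats transported for 180 min was compared with blood of goats held in pens. The 7 transported goats (goats 10, 11, 13, 14, 15, 16 and 17) travelled about 200 km in a livestock trailer, and the 7 control goats (goats 1, 3, 4, 6, 7, 8 and 9) were not transported. All were uncastrated male Spanish goats, 8 months old, without feed overnight, and blood was drawn after transport and before slaughter, with 1 library per goat. These are 14 of the 18 goats of the series, and 4 others were transported for 30 min. The work was spread over more than a single day, and the labels do not give the day or pen of a goat. Day could therefore not be included in the comparison, and its part in the differences was not tested. The question was which genes of circulating cells differ after 180 min of transport.

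The deposited table of this comparison lists 1247 genes, all with an unadjusted p-value under 0.05 in the study's own test. These genes were therefore chosen on the goats in which they are described here, and the tests below are not independent evidence that they differ. A gene that is absent from the table has no value here. The description is by function and covers 847 genes, called well covered below, whose normalized count averaged 50 or more over the 14 goats. A normalized count is the number of reads on a gene divided by a size factor of the goat. Just inside this limit was *MYH11*, with a mean of 50.1, and just outside it was *IQCG*, with 49.9. Of the well-covered genes, 180 carried no gene name.

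Blood RNA comes mostly from leukocytes, and in bulk blood a change in the number of cells of a type and a change in RNA per cell cannot be told apart. Neutrophils are short-lived phagocytes that carry enzymes and antimicrobial proteins in granules and are called by chemoattractants such as complement C5a. Lymphocytes carry antigen receptors and recirculate between blood and lymphoid organs. Cortisol, the main stress steroid of ruminants, is known to release neutrophils into blood, to move lymphocytes out of it, and to induce a set of genes directly through the glucocorticoid receptor.

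The libraries held between 10443023 and 39473244 reads, taken as the library size behind the deposited FPKM. The listed genes took 4.22% to 9.25% of the library in control goats and 7.93% to 26.2% in transported goats. Goat 10 had the highest share, followed by goat 11 with 14.3%. Goat 10 was the highest transported goat in 321 of the 584 well-covered genes that were higher after transport (55.0%), and goat 15 in 159 (27.2%). Goat 10 was also the lowest transported goat in 112 of these genes (19.2%). Medians of the function lists are therefore given with and without goat 10.

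**Figure D1:**
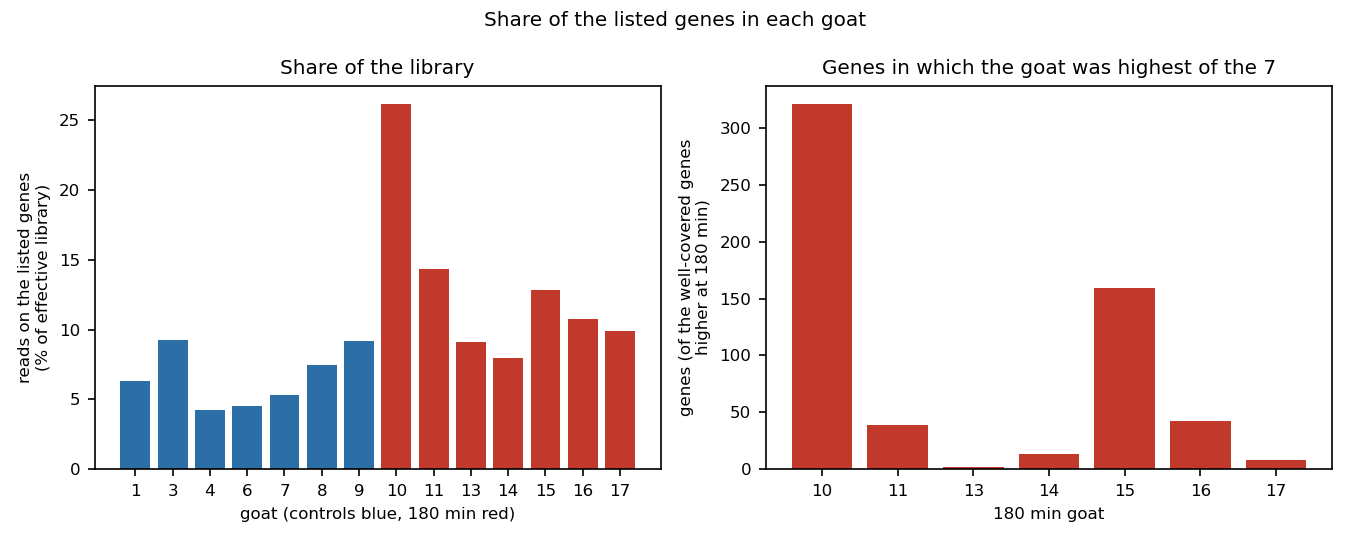
Left, bars give the percentage of each library that fell on the 1247 listed genes, for 7 control goats (blue) and 7 goats transported for 180 min (red). Right, bars give the number of the 584 well-covered genes higher at 180 min in which each transported goat was the highest of the 7, with 321 for goat 10 and 159 for goat 15.

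Of the 847 well-covered genes, 584 had a higher and 263 a lower mean after 180 min. The median log2 fold change was 1.17 among the higher and -0.81 among the lower genes, and 361 genes were at least 2-fold higher and 74 at least 2-fold lower. edgeR's quasi-likelihood test, with Benjamini-Hochberg adjustment over the listed genes, called 665 of the 1247 listed genes (53.3%), 449 higher (36.0%) and 216 lower (17.3%). Among the well-covered genes it called 478 (56.4%), 369 higher (43.6%) and 109 lower (12.9%). Below, "rose" and "fell" are used for these calls only. Higher genes made up 67.5% of the calls, and 27.9% of 498 calls with TMM scaling over the listed genes. The adjusted values lay close to the threshold in most genes, and the count depended on single goats. It was 665 in all 14 goats, between 170 and 444 without goat 10, 11, 15 or control goat 7, and between 45 and 90 without goat 16 or control goat 1, 4, 6 or 8 (90, 45, 73, 54 and 77). An exact two-sided permutation test of mean log2(normalized count + 1) over all 3432 assignments of the goats is therefore given gene by gene. It had a p under 0.05 in 798 listed genes (64.0%) and in 624 well-covered genes (73.7%). The smallest p it can give is 0.000583.

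The strictest description was of genes in which no transported goat overlapped a control goat. This held for 38 of the listed genes (3.05%) and 35 of the well-covered genes (4.13%), 22 of them higher and 13 lower after transport. The 8 named genes with the highest and the 8 with the lowest fold changes among them follow. They are given as a description, without a test of the overlap.

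*PTX3* encodes a soluble pentraxin that binds microbes and is stored in neutrophil granules. Its normalized count was 69.0 to 1100 in control goats (median 154) and 1804 to 58703 in transported goats (median 7975). Goats 15 and 16 had the highest counts, and even the lowest transported goat, 13, was above every control. The log2 fold change was 5.78 (edgeR adjusted p = 0.00486). *IL1R2* encodes a decoy receptor that binds interleukin 1 without signalling. It ranged from 30.9 to 239.8 (median 82.5) in controls and from 279.5 to 8701 (median 1819) after transport, and goats 15 and 16 were again highest. Its log2 fold change was 4.89 (edgeR adjusted p = 0.00168). *CLEC4E* encodes Mincle, a C-type lectin receptor of phagocytes that recognises microbial glycolipids and damaged cells. Control goats had 31.9 to 222 (median 137) and transported goats 399 to 2085 (median 994), a log2 fold change of 3.25.

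The other genes at the top of this ranking were not immune receptors. *SLC26A8* and *SLC26A6* encode anion transporters of the same family. *SLC26A8* had medians of 86.4 in controls and 1184 after transport (log2 fold change 3.48), with 298 in the lowest transported goat and 252 in the highest control. *SLC26A6* had medians of 438 and 3019 (log2 fold change 3.06). Goat 10 held 15648 counts of *SLC26A6* against 4903 in the next goat, but the other transported goats were also above all controls, which ended at 921. *TINAGL1*, a secreted matrix glycoprotein gene, had medians of 155 and 884 (log2 fold change 2.61). *CCKBR*, the gene of the gastrin and cholecystokinin B receptor, ran from 42.2 to 173 in controls and from 271 to 523 after transport. The 7 transported goats were close together in this gene, and its log2 fold change was 1.88. *GPT2*, whose product is the mitochondrial alanine aminotransferase, had medians of 69.7 and 280.4 (log2 fold change 1.74).

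**Figure D2:**
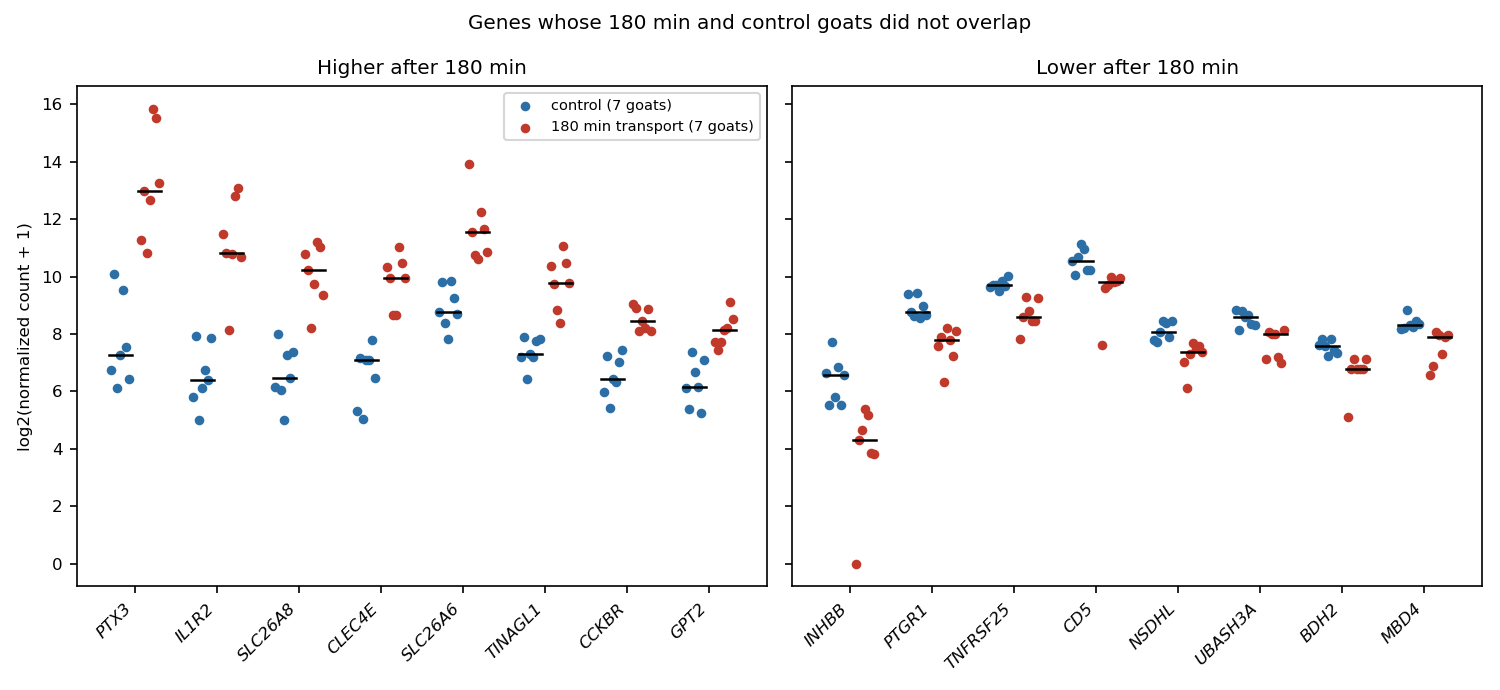
Each point is a goat, plotted as log2(normalized count + 1) for the 8 genes with the highest and the 8 with the lowest fold changes among named, well-covered genes without overlap. Black bars are group medians, and all 7 transported goats (red) lie above the 7 controls (blue) on the left and below them on the right.

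Among the 8 lowest genes, *INHBB*, which encodes the beta B subunit of activins and inhibins, had 45.2 to 211 counts in controls and 0 to 40.9 after transport, a log2 fold change of -2.18. It reached the mean of 50 through the control goats only. *PTGR1* encodes a reductase that inactivates leukotriene B4 and prostaglandins. It ranged from 379 to 690 in controls and from 80.1 to 297 after transport (log2 fold change -1.26, edgeR adjusted p = 0.0172). *NSDHL*, an enzyme gene of cholesterol synthesis, had medians of 270 and 164 (log2 fold change -0.84). *BDH2* encodes a cytosolic hydroxybutyrate dehydrogenase and had medians of 189 and 109 (log2 fold change -0.81). *MBD4*, the gene of a DNA glycosylase that repairs deaminated CpG sites, had medians of 320 and 234 (log2 fold change -0.77). The remaining 3 are T cell genes. *TNFRSF25* (death receptor 3) had medians of 830 and 386, *CD5* of 1491 and 894, and *UBASH3A*, a brake on T cell receptor signalling, of 385 and 252. Their log2 fold changes were -0.99, -0.95 and -0.84.

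Genes were then taken in 29 function lists, and the well-covered members present in the table are described. Some genes are members of several lists, so the lists are not separate. *CEBPD*, *BCL6*, *CEBPB*, *CD163*, *IL1R2*, *KLF4*, *DUSP1* and *ADORA3* of the glucocorticoid list are each counted in another list too. *CD14* is counted under pattern recognition and monocytes, and *TNFRSF25* under TNF receptors and T cells. Over all 847 well-covered genes, 43.6% were called higher, 12.9% were called lower and 73.7% had an exact permutation p under 0.05, with a median log2 fold change of 0.87, and the counts are to be read against these shares. The members with an exact permutation p under 0.05 made up a smaller share than 73.7% in the lists of pattern recognition receptors (7 of 13), glucocorticoid-induced genes (7 of 13), neutrophil activation receptors (5 of 9) and MAP kinases (6 of 9), among others, and nothing particular to a list is read from its count. In 73 well-covered genes the mean was under 50 in 1 of the groups, so that they reached the limit through the other group and had to differ. Those named below are described without a test. Every list median named below kept its sign without goat 10, under effective library sizes and under TMM scaling. TMM scaling moved the median of all listed genes by -0.50.

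**Figure D3:**
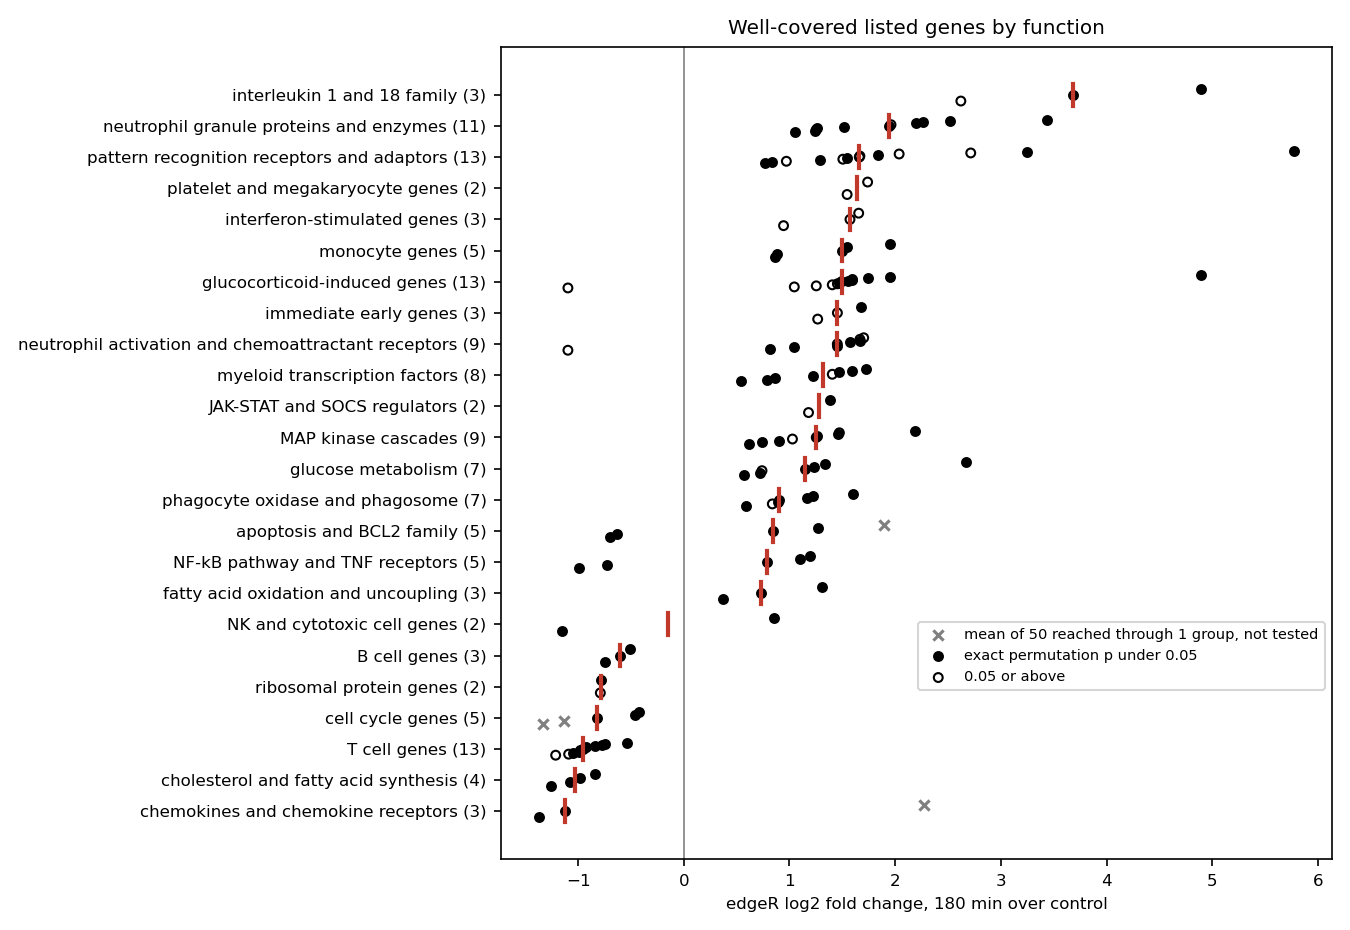
Each point is a well-covered listed gene, placed by its edgeR log2 fold change (180 min over control) in its function list, with the number of genes in parentheses. Filled points have an exact permutation p under 0.05, open points do not, grey crosses are genes that reached the mean of 50 through 1 group and are not tested, red bars are list medians, and the highest points are *PTX3* at 5.78 and *IL1R2* at 4.89.

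Genes of neutrophil granule proteins and enzymes were higher after transport. The table lists 12 of the 34 genes of this list, 11 of them well covered, and all 11 had a higher mean. edgeR called 9 of them, the exact permutation p was under 0.05 in 9, or 7 without goat 10, and the median log2 fold change was 1.94, or 1.27 without goat 10. *ALPL*, tissue-nonspecific alkaline phosphatase, ranged from 11.1 to 586 in controls (median 77.0) and from 226 to 4837 after transport (median 1601). The lowest transported goat was below the highest control, and the log2 fold change was 3.44 (exact permutation p = 0.00291). *VNN1*, a pantetheinase gene, had medians of 47.0 and 303 (log2 fold change 2.26, exact permutation p = 0.00583). *PGLYRP1*, a granule protein that binds bacterial peptidoglycan, had medians of 1481 and 5647 (log2 fold change 2.52), with 32974 in goat 10. *MMP25*, a membrane-bound metalloprotease gene of neutrophils, had medians of 2530 and 6634, and only the highest control, at 5784, reached into the transported range (log2 fold change 1.26). The iron-binding granule protein gene *LTF* and the calgranulin genes *S100A8* and *S100A12* rose too, with goat 10 highest in each. The permutation p of *S100A8* went from 0.0425 to 0.0868 without goat 10. *MGAM* and *BPI* were not called (exact permutation p = 0.147 and 0.685).

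Receptors that activate neutrophils and draw them to tissue showed the same direction with 1 exception. Of 9 well-covered members (10 of 30 listed), 8 were higher and 1 lower, edgeR called 7 higher and 1 lower, and 5 had an exact permutation p under 0.05, or 7 without goat 10. The median log2 fold change was 1.45, and 1.61 without goat 10. *C5AR1*, the receptor of complement C5a, had 3472 to 7055 counts in controls (median 3847) and 6514 to 34572 after transport (median 12020). Its log2 fold change was 1.67 (exact permutation p = 0.00117). *ADGRG3*, an adhesion receptor of granulocytes, did not overlap between the groups, with at most 601 in controls and at least 798 after transport. *C5AR2*, the gene next to *C5AR1* on chromosome 18, had medians of 946 and 1508 (log2 fold change 1.45), and its permutation p of 0.0239 became 0.0554 without control goat 8. *CSF2RA* and *CSF3R*, the receptors of the growth factors GM-CSF and G-CSF, had log2 fold changes of 1.04 and 0.81. The adenosine receptor gene *ADORA3* was the exception, with medians of 713 in controls and 328 after transport (log2 fold change -1.10, edgeR adjusted p = 0.0493, exact permutation p = 0.0513).

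Genes of the phagocyte oxidase and phagosome were all higher, 7 of 7 well covered out of 31, and 6 rose. *LGALS3*, a galectin gene of phagocytes, did not overlap between the groups. It ranged from 1849 to 2812 in controls and from 3152 to 8258 after transport (log2 fold change 1.22). *SLC11A1*, a metal transporter of the phagosome membrane, had medians of 961 and 2842 (log2 fold change 1.60, exact permutation p = 0.00175). *FGR*, a myeloid SRC family kinase gene, had medians of 7879 and 17982 (log2 fold change 0.89, exact permutation p = 0.00583). The oxidase subunit gene *NCF4* rose by edgeR, with an exact permutation p of 0.0402, which lost significance with any of 8 single goats left out (0.0851 without control goat 6). The median of the list was 0.91, and 0.98 without goat 10, and 6 members had an exact permutation p under 0.05, or 5 without goat 10.

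Pattern recognition receptors, which sense microbial and damage-associated molecules, and their adaptors were higher in 13 of 13 well-covered members out of 38. edgeR called 11, the median log2 fold change was 1.66 with and without goat 10, and 7 had an exact permutation p under 0.05, or 12 without goat 10. *TLR4*, the lipopolysaccharide receptor, had 581 to 1094 counts in controls (median 732) and 669 to 3952 after transport (median 1470). Its log2 fold change was 1.29 (exact permutation p = 0.00758). *CD14*, which hands lipopolysaccharide to TLR4, had medians of 2022 and 3736 (log2 fold change 1.55), and *LY96*, the third part of that receptor complex, had medians of 580.2 and 1045 without being called. *TLR7*, a sensor of single-stranded RNA, had medians of 1035 and 1774 (log2 fold change 0.84). *CLEC4E*, *CLEC4D*, *CLEC6A* and *CLEC4A* lie side by side on chromosome 5, between positions 99584321 and 99670348 of the deposited table, whose assembly is not given in the sources used here. The other 3 genes of this group varied widely among transported goats. *CLEC4D* ran from 33.8 to 1508, *CLEC4A* from 58.7 to 3697 and *CLEC6A* from 0 to 776. Their exact permutation p was 0.0542, 0.141 and 0.816, although edgeR called each.

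In the interleukin 1 and 18 family, 3 of 19 genes were listed, all receptors, and all rose. Beside *IL1R2*, *IL18RAP*, the accessory chain of the interleukin 18 receptor, had 95.8 to 412 counts in controls and 405 to 7395 after transport (medians 161 and 1825). Only the lowest transported goat fell below the highest control, and the log2 fold change was 3.69 (exact permutation p = 0.00117). *IL1RAP*, the shared signalling chain of interleukin 1 receptors, ranged from 0 to 3679 after transport, and its permutation p was 0.61.

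Of the MAP kinase list, 10 of 42 genes were listed and 9 well covered, all of them higher and 6 called. *MAPK14*, the p38 alpha kinase, had 601 to 1172 counts in controls (median 1033) and 1119 to 5537 after transport (median 1877). Its log2 fold change was 1.45 (exact permutation p = 0.00175). *MAPK13*, p38 delta, had medians of 56.1 and 159 (log2 fold change 1.26). *MAPK13*, *MAPK14* and *SLC26A8* are neighbours on chromosome 23 and do not overlap in the table's coordinates, with 15768 and 15989 bases between them. *GADD45A*, a stress-induced activator of p38 signalling, had medians of 285 and 571 (log2 fold change 1.47), but its permutation p was 0.0624 and goat 15 was highest. The phosphatase gene *DUSP1* was not called (log2 fold change 1.25, exact permutation p = 0.578), with 8167 counts in goat 15 and 121 in the lowest transported goat. The list median was 1.25 with and without goat 10.

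Members of the NF-kB pathway and TNF receptor list went in both directions. Of 5 well-covered genes, 3 rose and 2 fell. *LTBR*, the lymphotoxin beta receptor, had medians of 537 and 1011 (log2 fold change 1.10, exact permutation p = 0.00408). *TNFRSF1A*, the main TNF receptor, had medians of 1636 and 2931 (log2 fold change 0.79), and both genes lie near each other on chromosome 5. *TNIP1*, an inhibitor of NF-kB, had a log2 fold change of 1.19. *TNFRSF25* fell, as did *OTULIN*, a linear deubiquitinase gene, with medians of 723 and 393 (log2 fold change -0.73, exact permutation p = 0.00233).

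Genes known to be induced by glucocorticoids were mostly higher. Of 13 well-covered members out of 35, 12 were higher, edgeR called 9 higher and 1 lower (*ADORA3*), and 3 did not overlap between the groups. The exact permutation p was under 0.05 in 7, or 9 without goat 10, and the median log2 fold change was 1.49, or 1.61 without goat 10. *IL1R2* and *GPT2*, given above, are in this list. *DDIT4*, an inhibitor of mTORC1, had 247 to 1043 counts in controls (median 579) and 1214 to 2631 after transport (median 2241). No goat overlapped, and the log2 fold change was 1.55. *CEBPD*, the transcription factor C/EBP delta, had medians of 6365 and 19854 (log2 fold change 1.47, exact permutation p = 0.00117), and *CD163*, the macrophage scavenger receptor of haemoglobin, had medians of 1376 and 4000 (log2 fold change 1.95, exact permutation p = 0.00117) with 14681 in goat 15. The clock gene *PER1* had medians of 222 and 455 (log2 fold change 1.59, exact permutation p = 0.0105). Some of the remaining members varied widely among transported goats. *SGK1*, a kinase gene, ranged from 212 to 7256 after transport and from 595 to 1638 in controls, and its exact permutation p was 0.254 although edgeR called it. *CRISPLD2* and *CEBPB* were not called, with p = 0.177 and 0.447 in the exact permutation test. Goat 15 was the highest goat in 9 of the 13 genes.

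Immediate early genes and JAK-STAT regulators were few in the table, 3 of 25 and 2 of 38. *FOSL2*, a subunit of AP-1, rose, with medians of 320.1 and 949.5 (log2 fold change 1.68, exact permutation p = 0.00758). *FOS* itself had medians of 270 and 412 and was not called (exact permutation p = 0.288), and *KLF4* had a permutation p of 0.171. Without goat 10 the exact permutation p was 0.0443 for *FOS* and 0.0216 for *KLF4*. *PTPN1*, the phosphatase PTP1B that dampens JAK signalling, had 1951 to 4318 counts in controls and 3563 to 11562 after transport (log2 fold change 1.39, exact permutation p = 0.00117). *SOCS3*, the feedback inhibitor of cytokine receptors, had medians of 812 and 1050 (log2 fold change 1.18, exact permutation p = 0.143), and goat 15 had 4535 counts.

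Transcription factors that direct myeloid cells were higher in 8 of 8 well-covered members out of 24, and 7 rose. *ETS2* had 585 to 1315 counts in controls (median 727) and 1155 to 5912 after transport (median 2751), a log2 fold change of 1.72 (exact permutation p = 0.00117). *BCL6*, a repressor also used by germinal centre B cells, had medians of 1017 and 3247 (log2 fold change 1.59). *RARA*, the retinoic acid receptor alpha, and *CEBPA*, which drives granulocyte formation, differed less but with little spread, with log2 fold changes of 0.86 and 0.79 and an exact permutation p of 0.00233 for each. The list median was 1.31, and 1.13 without goat 10, and 7 members had an exact permutation p under 0.05, or 6 without goat 10.

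Genes typical of monocytes and macrophages were higher in 5 of 5 well-covered members out of 21, with 4 called and a median of 1.49 (1.53 without goat 10). *CSF1R*, the receptor of the growth factor of monocytes, had 2156 to 5993 counts in controls and 5609 to 9407 after transport (medians 3392 and 6243). Its log2 fold change was 0.89 (exact permutation p = 0.00175). *TGFBI*, a matrix protein gene of monocytes, had medians of 3724 and 7232 (log2 fold change 0.86). *ADGRE1* had medians of 108 and 585, was not called by edgeR, and had an exact permutation p of 0.0117.

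T cell genes were lower after transport in all 13 well-covered members, out of 43 genes in the list. edgeR called 12 of the 13, the exact permutation p was under 0.05 in 11, or 10 without goat 10, and 4 did not overlap between the groups. The median log2 fold change was -0.95, and -0.78 without goat 10. Beside *TNFRSF25*, *CD5* and *UBASH3A*, the fourth gene without overlap was *LCK*, the kinase that starts T cell receptor signalling. It ranged from 1752 to 2897 in controls (median 2553) and from 1083 to 1709 after transport (median 1454), a log2 fold change of -0.74. The receptor chains *CD3E*, *CD3D* and *CD3G* are adjacent on chromosome 15, and *CD247* encodes the zeta chain. *CD3E* had medians of 4034 and 2151 (log2 fold change -0.78, exact permutation p = 0.0035). *CD3D* had medians of 1515 and 764, and *CD247* of 1176 and 699, with log2 fold changes of -0.95 and -0.93. *CD3G* was not called and had a permutation p of 0.115. *CD96*, *PRKCQ*, *TXK*, *CD6* and *SH2D1A* also fell, by -0.54 to -1.21 on the log2 scale. *SH2D1A*, at -1.21, had an exact permutation p of 0.0676. That of *TXK* was 0.046, and 0.0892 without goat 11. Transported goat 10 had the lowest summed level of the 13 genes.

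B cell genes in the table were 3 of 32, and all were lower without being called by edgeR (adjusted p = 0.0593 to 0.0635). *MS4A1*, which encodes CD20, had medians of 4979 and 3339 (log2 fold change -0.51, exact permutation p = 0.0122). *CD180*, a toll-like receptor homologue of B cells, had medians of 946 and 612 (log2 fold change -0.74, exact permutation p = 0.0152). *POU2F2*, the transcription factor OCT2, had medians of 470 and 313, and its permutation p of 0.046 rose to at most 0.0938 with a goat left out. In the list of NK and cytotoxic cells, with 2 of 29 genes, directions differed. *NKG7*, a cytotoxic granule protein gene, rose, with medians of 1343 and 2480 and a log2 fold change of 0.85 (exact permutation p = 0.00175). *S1PR5*, a receptor that lets NK cells leave tissue, fell, with medians of 140 and 64.2 (log2 fold change -1.16, exact permutation p = 0.0274, and 0.0577 without control goat 4). Of the chemokine list, 3 genes were well covered. *CXCL8*, the neutrophil chemoattractant, had medians of 15.3 and 81.0 and reached the mean of 50 through the transported goats only. The lymphocyte receptor genes *CXCR6* and *CCR6* had medians of 171 and 83.4 and of 144 and 65.6 (exact permutation p = 0.00117 and 0.0035). Neither receptor gene was called by edgeR.

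**Figure D4:**
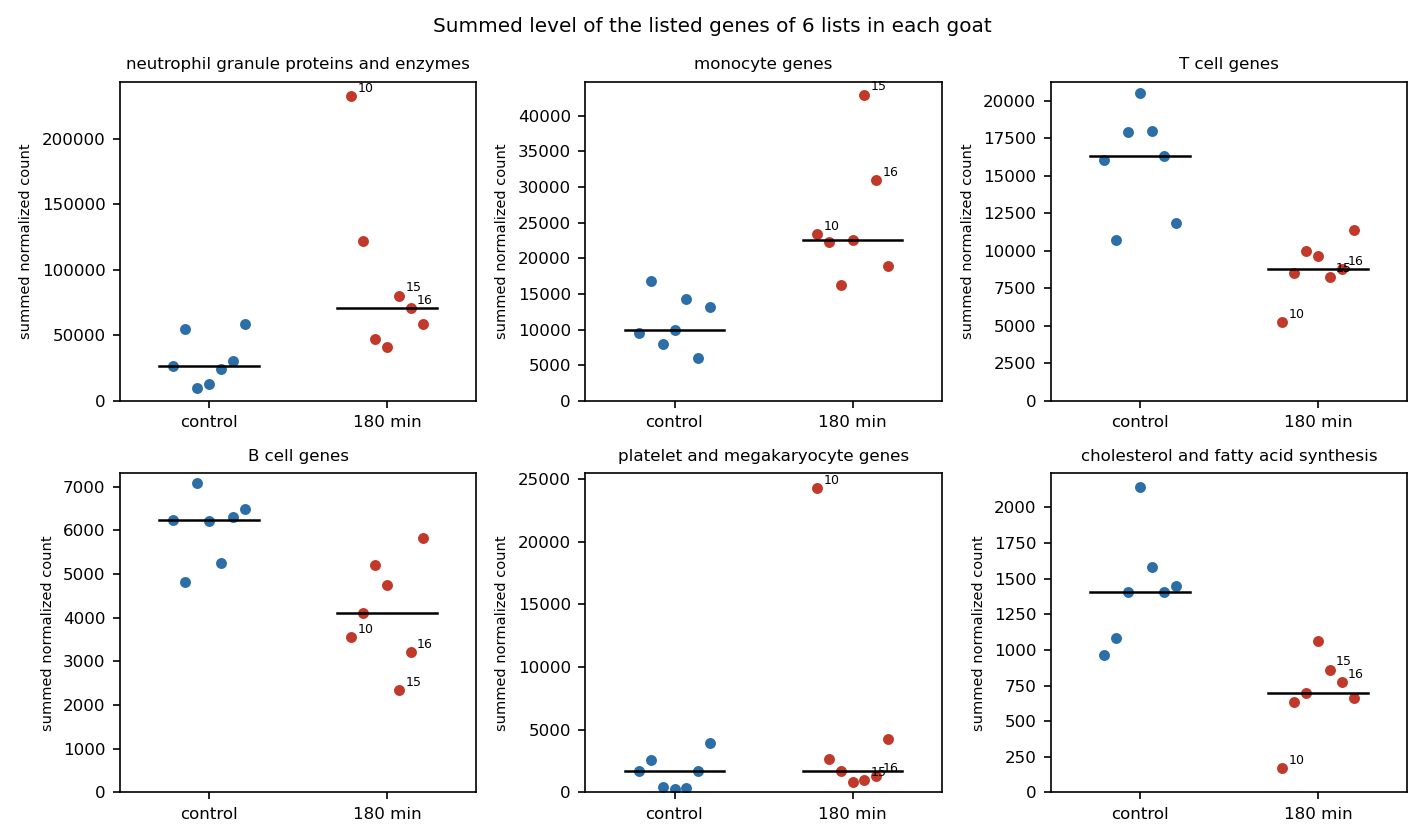
Points are the summed normalized counts of the listed genes of 6 lists in each goat, with black bars at group medians and goats 10, 15 and 16 marked. Neutrophil granule sums ran from 9922 to 58934 in controls and from 40910 to 232463 after transport, and T cell sums from 10733 to 20520 and from 5266 to 11420.

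Summed over the listed members, the neutrophil granule list had a median of 26680 in controls (9922 to 58934) and 71090 after transport (40910 to 232463). The monocyte list went from a median of 9949 (6052 to 16884) to 22538 (16234 to 42972). The T cell list went the other way, from 16295 (10733 to 20520) to 8808 (5266 to 11420), and the B cell list from 6228 to 4111. In these sums the groups overlapped in the neutrophil, monocyte, T cell and B cell lists, each through the goats at the edges. The order of the transported goats differed between lists. Goat 14 had the lowest granule sum of the 7, 40910, below control goats 3 and 9, and an interleukin 1 and 18 family sum of 4708, while no control exceeded 643 in the latter. Goat 10 led the granule sums, and goats 15 and 16 led the interleukin 1, pattern recognition and glucocorticoid sums. Abundant genes dominate such sums, so the order of goats can rest on few genes. *PTX3* gave 58703 of the pattern recognition sum of 90894 in goat 15. *S100A12* gave 71659 of the granule sum of 232463 in goat 10, and *MS4A1* 4979 of the B cell sum of 6228 in control goat 1. The part of the cell type markers in the results on the other gene groups was not tested. No gene of the MHC class II list of 25 was in the table.

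No well-covered platelet or red cell gene was called, and a single goat held much of the platelet signal. Of 18 platelet genes, 5 were listed and 2 well covered, *GP1BB* and *VWF*. *GP1BB*, a chain of the platelet receptor for von Willebrand factor, had medians of 1302 in controls and 1110 after transport, and goat 10 had 20030 counts (exact permutation p = 0.206). *VWF* had medians of 177 and 556, with 3996 in goat 10 (exact permutation p = 0.0886). The median log2 fold change of the 2 genes was 1.64, and 0.40 without goat 10. *CA2*, carbonic anhydrase 2 of red cells, had an exact permutation p of 0.223, and 0.0111 without goat 10, the lowest goat with 96.1 counts. Interferon-stimulated genes, 3 well covered of 36, were high in some transported goats only, goats 14, 15 and 16 for *IFIT1* and *MX2*. *IFIT1* had medians of 1811 and 1307 and reached 25525 in goat 15, and *MX2* had medians of 873 and 899 and reached 7813 in the same goat (exact permutation p = 0.84 and 0.298). edgeR called *MX2* (adjusted p = 0.0447) and not the other members. *IRF9*, the DNA-binding subunit of the interferon-activated complex, had medians of 5253 and 9136 (exact permutation p = 0.0629).

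Genes of glucose metabolism were higher in 7 of 7 well-covered members out of 37, and 5 rose. The median log2 fold change was 1.14, and 0.95 without goat 10. *PKM*, pyruvate kinase, had 4863 to 12676 counts in controls and 10881 to 49829 after transport (medians 7498 and 14690), a log2 fold change of 1.33 (exact permutation p = 0.00175). *PFKFB3* and *PFKFB4* encode enzymes that make the activator of phosphofructokinase. *PFKFB3* had medians of 540.5 and 1581 and reached 15147 in goat 15, with a log2 fold change of 2.67. *PFKFB4* had medians of 538 and 1651 (log2 fold change 1.23, exact permutation p = 0.014). *GYS1*, glycogen synthase, had medians of 1055 and 1880 (log2 fold change 1.14, exact permutation p = 0.00408). *ENO1*, enolase, rose as well, and *HK3* was not called (exact permutation p = 0.0519).

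Of the list on fatty acid oxidation, 3 genes were well covered. *ATGL*, the name the table gives to adipose triglyceride lipase, had medians of 2105 and 5083 (log2 fold change 1.31, exact permutation p = 0.00408). *LIPE*, hormone-sensitive lipase, which takes the next step of lipolysis, had medians of 239.6 and 410.3 (log2 fold change 0.73, exact permutation p = 0.0111). *HADHA*, a mitochondrial beta oxidation enzyme gene, had medians of 997 and 1246 and was not called (log2 fold change 0.37), although its exact permutation p was 0.0035. Its direction turned under TMM scaling, where the value was -0.12.

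Genes of cholesterol synthesis were lower in 4 of 4 well-covered members out of 30, and 2 fell. The exact permutation p was under 0.05 in all 4, with and without goat 10, and the median log2 fold change was -1.03, or -0.83 without goat 10. Beside *NSDHL*, *MSMO1*, which acts just before it in sterol demethylation, had 407 to 958 counts in controls (median 596) and 42.7 to 457 after transport (median 326). Its log2 fold change was -0.98 (exact permutation p = 0.00117). *SQLE*, squalene epoxidase, had medians of 406 and 175, and *DHCR7*, which makes cholesterol in the last step, of 134 and 71.5 (exact permutation p = 0.00408 and 0.00758). Goat 10 was the lowest goat in *MSMO1*, *SQLE* and *DHCR7*, with 0 counts for *DHCR7*, and goat 11 was lowest in *NSDHL*.

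Of 30 cell cycle genes, 5 were well covered. The 3 with a mean of at least 50 in both groups were lower, and edgeR called none of them. *CCNB2*, cyclin B2, had medians of 113 and 55.4 (exact permutation p = 0.0128). The replication gene *MCM5* and the mitotic kinase gene *PLK1* had log2 fold changes of -0.47 and -0.42 (exact permutation p = 0.0239 and 0.0175), and the p of *MCM5* was 0.0507 without goat 15. *CCNA2*, cyclin A2, with medians of 82.7 and 38.4, and the mitotic kinase gene *AURKB*, with a log2 fold change of -1.14, reached the mean of 50 through the control goats only.

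Apoptosis genes were divided. Of 5 well-covered members out of 40, *BAK1*, a pore-forming member of the BCL2 family, fell, with medians of 499 and 345 (log2 fold change -0.63, exact permutation p = 0.00175). The other pore-forming gene, listed as *bax*, rose, with medians of 565 and 910.2 (log2 fold change 0.84, exact permutation p = 0.0245, and 0.0565 without control goat 6), and goat 10 was highest with 2501. *BCL2L15* had medians of 600.0 and 1875 (log2 fold change 1.27). *CASP14*, a caspase of skin cornification, had medians of 24.7 and 85.8 and reached the mean of 50 through the transported goats only. *PARP1*, which signals DNA breaks, had medians of 2772 and 1978 (exact permutation p = 0.0355, and 0.0723 without control goat 4).

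Some lists were nearly empty. Of 76 ribosomal protein genes, 2 were listed, *RPL22* and *RPS13*, both lower, with an exact permutation p of 0.0379 and 0.06. That of *RPL22* was 0.0775 without goat 15. Of 28 collagen and connective tissue genes, 7 were listed and 1 was well covered, *SERPINF2*, the plasmin inhibitor gene, with medians of 64.8 and 39.2, which reached the mean of 50 through the control goats only. Of 30 heat shock and chaperone genes, and of 18 eosinophil and basophil genes, 1 each was listed and none was well covered.

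In the lists whose medians were not given above, leaving out goat 10 moved the median log2 fold change from 3.69 to 3.85 for the interleukin 1 and 18 family, from 0.79 to 0.75 for the NF-kB list, from 0.73 to 0.65 for fatty acid oxidation and from 0.84 to 0.48 for apoptosis. It moved it from -0.60 to -0.52 for B cell genes, from -0.15 to -0.12 for NK cell genes, from -1.12 to -0.91 for chemokines and from -0.82 to -0.76 for the cell cycle, and that of the JAK-STAT list stayed at 1.28. For immediate early genes it went from 1.45 to 1.47, for interferon-stimulated genes from 1.57 to 1.74 (0.96 without goat 15), and for *CA2*, the only red cell gene, from 0.94 to 1.12, while those of ribosomal protein genes and of *SERPINF2*, the only connective tissue gene, stayed at -0.79 and -1.08. The apoptosis, chemokine, cell cycle and connective tissue medians include genes that reached the mean of 50 through 1 group and are a description only. The number of members with an exact permutation p under 0.05 fell from 3 to 2 for B cell genes, from 2 to 1 for NK cell genes and from 1 to 0 for ribosomal proteins, and *PARP1* of the apoptosis list had 0.067 in the exact permutation test. It went from 2 to 3 for the interleukin 1 and 18 family, from 1 to 3 for immediate early genes, from 1 to 2 for the JAK-STAT list, from 0 to 1 for red cell genes and from 6 to 7 for glucose metabolism.

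**Figure D5:**
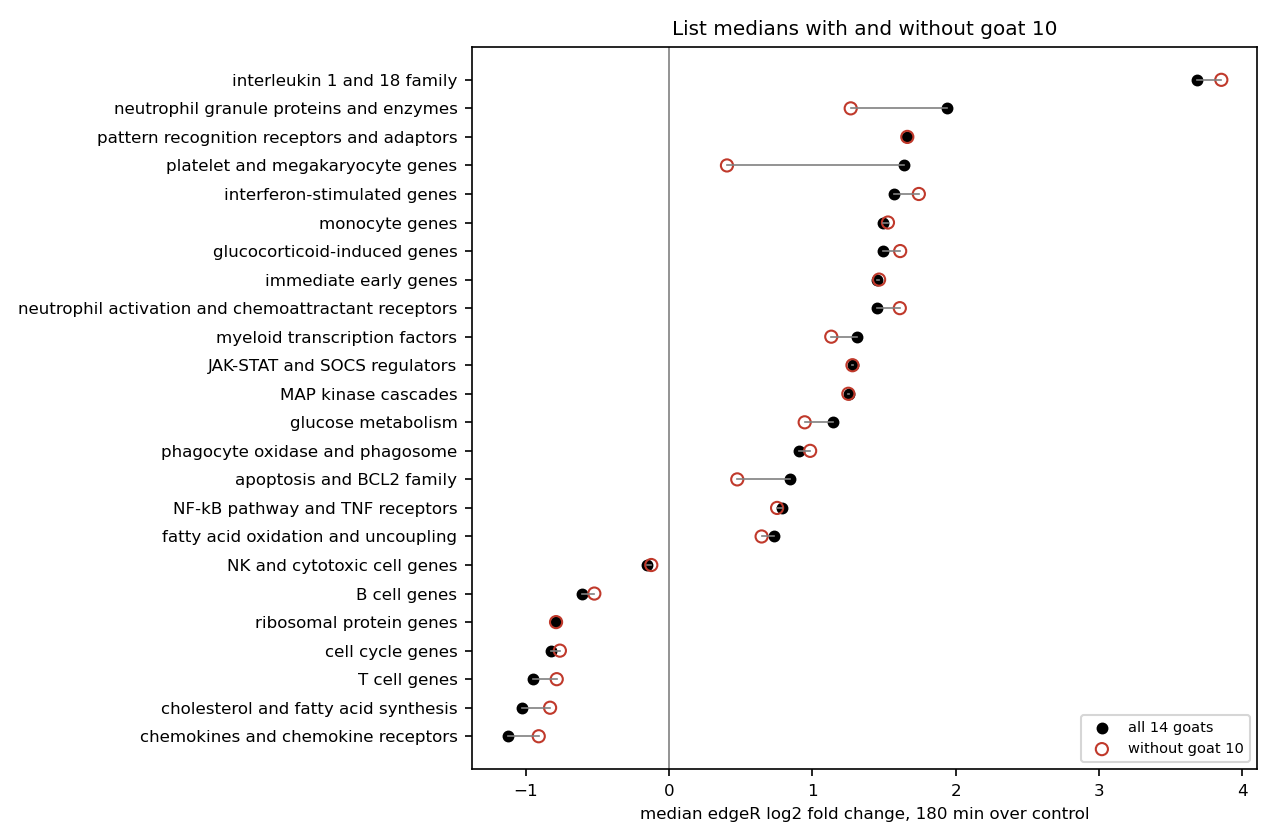
Median edgeR log2 fold change (180 min over control) of each function list over all 14 goats (black) and without goat 10 (open red). The medians kept their sign, and that of the platelet list moved from 1.64 to 0.40.

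Some of these genes are also in the table made for the 4 goats of the 30 min group. That table was normalized separately and shares the 7 control goats, so the values stand side by side without a test. At 30 min *PTX3* had a mean of 2680 ± 838 (SD, n = 4) beside a control mean of 317, and the mean difference on the log2(normalized count + 1) scale was 3.82, beside 5.51 at 180 min. For *SLC26A8* these differences were 1.28 and 3.46, for *TINAGL1* 1.08 and 2.44, for *C5AR1* 0.87 and 1.49, and for *ETS2* 0.79 and 1.57. *PFKFB3* had 1.23 and 1.96, *ADGRG3* 0.96 and 1.62, *VNN1* 1.24 and 1.90, *TLR4* 0.77 and 1.12, and *C5AR2* 0.77 and 1.11. Other genes had a larger difference at 30 min on this scale, but the order of several turned with 1 goat left out. For *DDIT4* the differences were 1.76 and 1.62, for *CXCL8* 3.79 and 2.89, and for *CEBPB* 1.43 and 0.55. For *DUSP1* they were 1.13 and 0.45, for *FOS* 1.34 and 0.71, and for *SGK1* 1.34 and 0.86. Leaving out 1 goat raised the 180 min difference to as much as 1.06 for *CEBPB*, 1.04 for *DUSP1*, 1.14 for *FOS* and 1.36 for *SGK1*. For *DDIT4* it rose to at most 1.7624, just above the 1.7569 at 30 min. Goat 10 was the lowest transported goat in *CEBPB*, *DUSP1*, *FOS* and *SGK1*. On group means *DUSP1* differed more at 180 min (2558 beside a control mean of 1073) than at 30 min (2047 beside 958). The same held for *SGK1* (2843 beside 1010 at 180 min, 2213 beside 897 at 30 min). As a ratio of group means it also held for *GADD45A*, *KLF4*, *CRISPLD2*, *CA2* and *PTAFR*, given next. It did not hold for *DDIT4*, *CXCL8*, *CEBPB* and *FOS*. *GADD45A* had 1.43 and 1.05, *KLF4* 1.12 and 0.94, *CRISPLD2* 0.73 and 0.69, and *CA2* 0.71 and 0.61. *PTAFR*, the gene of the platelet-activating factor receptor, had 1.11 and 0.79. With 1 goat left out, the 180 min difference rose to as much as 1.44 for *GADD45A*, 1.37 for *KLF4* and 0.96 for *CRISPLD2*. It rose to 0.99 for *CA2* and 1.34 for *PTAFR*. These values and that of *SGK1* are above the 30 min values, and goat 10 was the lowest transported goat in each of these genes. *SOCS3* had 0.77 and 0.78, and *MX2* 0.61 and 0.76. Among lower genes, *CCNB2* had -1.16 and -0.83, *PLK1* -0.86 and -0.39, *MBD4* -0.74 and -0.85, and *MS4A1* -0.43 and -0.57. The decoy receptor gene *IL1R2*, *CLEC4E* and the T cell genes named above are absent from the 30 min table.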

How the data were processed

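Blood RNA was collected in PAXgene tubes, depleted of globin mRNA and selected with poly-T beads, and paired-end libraries were made with a kit that does not mark strand. Per the study's methods, the authors cleaned reads with fastp and mapped them with HISAT2. The assembly and the counting tool are not given in the sources used here. The deposited counts are whole reads per gene. The authors divided them by a size factor per goat to give the normalized count, used here as signal, and the deposited FPKM were used only to obtain the library size of each goat. The table also holds the authors' log2 fold changes and p-values, which were used only to check that every listed gene had an unadjusted p-value under 0.05. No column of another series was found.

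Goats were grouped from the labels. Goat numbers are not shared between groups, so no pairing was possible. Counts of 2 goats of a group were equal in at most 1.06% of the well-covered genes. edgeR's quasi-likelihood test (4.0.16, robust shrinkage, R 4.3.3) was fitted to the counts of all 1247 genes with the deposited size factors, two-sided, and p-values were adjusted by Benjamini-Hochberg over those genes. This is not a false discovery rate over all genes of the goat. Single genes were tested by an exact two-sided permutation test over 3432 assignments on log2(normalized count + 1), in Python 3.11.15. p-values measure the spread between goats. The scripts were tested on simulated data. Alternatives used limma 3.58.1, DESeq2 1.42.0, other scalings, pseudocounts of 0.1 and 10, filters at 10 and 50, and each goat left out. Gene names are those of the table. No gene identifier matched the reference table, and 871 of 939 names did.

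The members and the 29 function lists were chosen with earlier results of these data known. In each list the well-covered members could be named, and the 4 with the smallest edgeR p-values were given values, beside the 8 highest and 8 lowest fold changes among named genes without overlap. List names were matched without regard to case or through RefSeq synonyms. Genes given only in the closing observations were chosen after their values were seen. Depth is given as reads, and its intervals would cover counting error only. Promoter sequences were not analysed here, and some members of the lists are counted but not reported here by name.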

Additional observations from a re-analysis of the deposited data

Results flagged for a closer look

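Single goats that stood apart from the other 6 of their group were looked for in 184 sets of values (both groups of 90 genes, and 2 measures of depth), and 26 were found. For independent, normally distributed values chance gives about 1 in 20, but these genes were measured in the same goats and counts are skewed, so the rate that chance gives here was not tested. Goat 10 gave 14 of them. It was far above the other transported goats in the share of its library on listed genes (26.2%, next 14.3%) and in the normalized counts of *PGLYRP1* (32974, next 7948), *bax* (2501), *BCL2L15* (6524), *VWF* (3996), *GP1BB* (20030, next 3032), *IRF9* (30135), *PKM* (49829), *ATGL* (12720) and *SLC26A6* (15648, next 4903). It was far below them in *MSMO1* (42.7, next 302), *DHCR7* (0), *CD5* (194, next 773) and *BDH2* (33.8). The transported goat 15 stood above its group in *CD163* (14681, next 5180).

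Among control goats, goat 8 was high in *MAPK13* (187), *CXCL8* (112) and *RPL22* (3407) and low in *ADGRG3* (90.3, next 394). Goat 3 was high in *CASP14* (83.5) and *ATGL* (5212), goat 6 in *MSMO1* (958), goat 9 in *LIPE* (613), and goat 4 in *INHBB* (211) and *MBD4* (456). Goat 1 was low in *MX2* (556). What set these goats apart was not tested.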

How the results depend on the processing

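The number of called genes depended on the setting. From 449 higher and 216 lower genes, limma gave 207 and 89, limma with a variance trend 258 and 97, and limma 131 and 40 with a pseudocount of 0.1 and 287 and 157 with a pseudocount of 10, in place of the pseudocount of 1 behind its 207 and 89. TMM over the listed genes gave 139 and 359, and a minimum mean of 50 left 141 lower genes. DESeq2 gave 724 and 476. The paper took its p-values from DESeq2, and the listed genes were selected on them. A high DESeq2 count was therefore built in, and it cannot show how the calls depend on the setting. Effective library sizes, no robust shrinkage and a minimum mean of 10 stayed within 1.5 times, as did the exact permutation test (477 and 321). With a goat left out, the higher genes numbered 39 to 499 and the lower genes 6 to 229. Of 173 genes tested singly, the direction turned under TMM for *HADHA* (-0.12), and the sign was kept in every gene with an exact permutation p under 0.05 in all 14 goats under the pseudocounts, the effective library sizes and the omission of any goat. *IFIT1*, with a permutation p of 0.84, changed sign in some of these. Of 71 genes described in detail with a mean of at least 50 in both groups and an exact permutation p under 0.05, 8 lost it with some goat left out (*C5AR2*, *CD14*, *bax*, *S1PR5*, *POU2F2*, *PFKFB3*, *MCM5* and *RPL22*), as did *S100A8*, *NCF4*, *PARP1* and *TXK* among those given briefly. The cause was not tested. No paired analysis was possible because goat numbers are not shared between the groups.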

Other observations

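The genes in this paragraph and the next were picked after their values had been seen, so they are given as values without a test. Genes of lipid handling were higher after transport in a group of 10 that includes *ATGL* and *LIPE*. *ABHD5*, which encodes the activator of adipose triglyceride lipase, had medians of 139 normalized counts in controls and 217 after transport. *DGAT1* and *DGAT2*, the enzymes that make triglyceride, had medians of 396 and 620.4 and of 424 and 768. *SCARB1*, a receptor for high-density lipoprotein, had medians of 292 and 652, and *GPAT3*, an acyltransferase gene, of 287 and 479. Genes around glycogen showed the same direction. *GYG1*, glycogenin, had medians of 544 and 883, *PPP1R3B*, a glycogen-targeting subunit of protein phosphatase 1, of 528 and 1313, and *PHKA2*, a subunit of phosphorylase kinase, of 94.3 and 315.

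The activin family was divided. *INHBA*, the beta A subunit, had medians of 44.7 in controls and 104 after transport, with 1695 in goat 10, while *INHBB* was lower. *ACVR1B* and *ACVRL1*, type I receptors of this family, had medians of 375 and 1105 and of 597 and 927. *PMEPA1* and *ID3*, targets of TGF-beta and BMP signalling, had medians of 112 and 57.4 and of 675 and 329.9. At 30 min *INHBA* had a mean of 21.1 ± 6.10 (SD, n = 4) beside a control mean of 64.7 in that table. Among abundant transcripts of secreted proteins, *SERPINA1*, alpha-1 antitrypsin, had medians of 9794 and 33486 with 266900 in goat 10, and *C3*, complement component 3, of 7825 and 16010. Further lymphocyte genes were lower. *TRDC*, the constant region of the T cell receptor delta chain, had medians of 3018 and 1445, *CRTAM* of 109 and 32.8, and *BTLA* of 1498 and 1155. A mitochondrial ribosomal RNA gene, ENSCHIG00000000004, had medians of 4515 and 1481, with 15280 in control goat 1. These libraries were selected for poly-A RNA.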
